A study of Mus musculus with 16 samples.

Results

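Human Dicer, written hsDicer here, was returned to Dicer -/- murine mesenchymal stem cells, and the microRNAs (miRNAs) of these cells were read by small RNA sequencing. The rescued cells (Dicer -/- with hsDicer) were set against Dicer -/- cells given mCherry, a fluorescent protein with no role in RNA processing; these are called knockout cells. Dicer f/f cells that carry mCherry are called wild type and give the scale for how far a miRNA returned. Each of the 3 groups had 2 libraries, so 4 of the series' 16 libraries make the comparison and 2 more set its scale. All lines were transfected, came from C57BL/6 mice, and gave total RNA by Trizol, from which the 15 to 50 nt fraction was cut from a gel and sequenced on Illumina machines. The labels give no passage, clone or age, and do not say whether replicates came from separate cultures, so p-values measure only the spread between these libraries. The members are all miRNA arms in those libraries: 588 distinct mature sequences were read in the series and 551 had at least 20 reads over the 16 libraries and were tested.

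Dicer is the RNase III enzyme that cuts the hairpin precursor of a miRNA, freed in the nucleus by Drosha, into a short duplex. One strand of the duplex, from the 5p or the 3p side of the hairpin, is kept in an Argonaute protein as the mature miRNA and pairs with messenger RNAs mainly through its seed, bases 2 to 8. For a 5p arm Drosha sets the 5′ end and Dicer the 3′ end, and for a 3p arm the roles are swapped. A few miRNAs avoid Dicer, such as miR-451a, which Argonaute 2 cuts, and others avoid Drosha, such as miR-320 and miR-484, whose precursors come directly from capped transcripts.

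The mature sequences below (RefSeq, GRCm38.p6) are those of the abundant arms that passed the test in the rescue and of let-7i-5p, which did not; capitals mark the seed, and arms with the same seed stand together.
miR-22-3p: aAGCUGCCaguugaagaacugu
miR-21a-5p: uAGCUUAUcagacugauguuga
miR-29a-3p: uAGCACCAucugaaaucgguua
miR-29b-3p: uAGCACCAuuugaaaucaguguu
let-7a-5p: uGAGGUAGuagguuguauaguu
let-7b-5p: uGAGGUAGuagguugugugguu
let-7c-5p: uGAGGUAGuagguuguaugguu
let-7d-5p: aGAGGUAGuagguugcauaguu
let-7f-5p: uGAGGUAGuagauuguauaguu
let-7i-5p: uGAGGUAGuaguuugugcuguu
miR-24-3p: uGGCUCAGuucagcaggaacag
miR-24-2-5p: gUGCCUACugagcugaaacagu
miR-31-5p: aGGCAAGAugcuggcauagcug
miR-96-5p: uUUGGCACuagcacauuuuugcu
miR-182-5p: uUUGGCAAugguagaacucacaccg
miR-183-5p: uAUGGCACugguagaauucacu
miR-30a-5p: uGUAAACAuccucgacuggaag
miR-30e-5p: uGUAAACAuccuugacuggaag
miR-99b-5p: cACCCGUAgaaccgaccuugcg
miR-125b-5p: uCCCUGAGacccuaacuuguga
miR-26a-5p: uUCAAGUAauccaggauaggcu
miR-16-5p: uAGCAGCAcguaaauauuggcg
miR-92a-3p: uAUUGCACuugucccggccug
miR-222-3p: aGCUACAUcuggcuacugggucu
miR-140-3p: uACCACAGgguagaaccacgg
The let-7 arms shown differ by as little as a single base, so exact matching keeps them apart only where that base was read without error. miR-96-5p and miR-182-5p differ in the last base of the seed.

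The rescue libraries held 15144742 and 20096330 reads, the knockout libraries 10877381 and 17966472, and the wild-type libraries 17791160 and 21559229. After removal of the 3′ adapter, inserts of at least 15 nt numbered 14415661 and 18778950 in rescue, 10331036 and 15967421 in knockout, and 17298198 and 20502254 in wild type, and all levels are given as counts per 1000000 of these inserts (CPM). Reads were 41 nt long in replicate 1 of every group and 51 nt in replicate 2, which limits the inserts that can be recognised to 36 nt or less and 46 nt or less. The 3 replicate 1 libraries were also less varied, with 227558 distinct inserts in rescue, 191711 in knockout and 232598 in wild type, against 570733, 537928 and 535909 in replicate 2. Reads matching the Dicer1 transcript numbered 0 and 27 in rescue, 1 and 1 in knockout, and 0 and 1 in wild type; they check nothing here, since the deleted part is not given and reads of the human and the mouse gene were not told apart.

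With human Dicer, miRNA reads stood far above the knockout in both replicates and closer to wild type in replicate 1 than in replicate 2. miRNA reads made up 38.1% and 14.4% of inserts in rescue, against 1.54% and 0.293% in knockout, and 47.6% and 37.6% in wild type. Both rescue libraries lay above both knockout libraries, replicate 1 reached the wild-type range, and replicate 2 lay below it. Within replicate 1 the rescued level was 24.7 times the knockout level and 80.1% of wild type, and within replicate 2 it was 49.2 times the knockout level and 38.4% of wild type. The means were 26.3% ± 16.8 in rescue, 0.919% ± 0.885 in knockout and 42.6% ± 7.12 in wild type (SD, n = 2 each). The difference between rescue and knockout was 25.4 percentage points, with a two-sided exact permutation p of 0.333, the smallest that 2 against 2 libraries can give. In bulk RNA, fewer cells that make miRNAs and less miRNA per cell cannot be told apart.

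The length of the inserts followed the same order. Inserts of 22 or 23 nt, the usual length of a Dicer product, made up 42.5% and 19% in rescue, 10.6% and 3.75% in knockout, and 51.2% and 40.9% in wild type. The 22 nt length alone held 28% and 11.7% of inserts in rescue, 6.84% and 1.98% in knockout, and 38.9% and 26.1% in wild type. Reads of small nucleolar and small nuclear RNAs, which Dicer does not make, stood at 43909 and 199261 CPM in rescue, 81868 and 244922 CPM in knockout, and 29460 and 106544 CPM in wild type. They were lower in rescue than in knockout within each replicate, but the spread between replicates was larger (two-sided exact permutation p = 0.667). As all levels are shares of a library, a larger miRNA share lowers the rest.

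**Figure D1:**
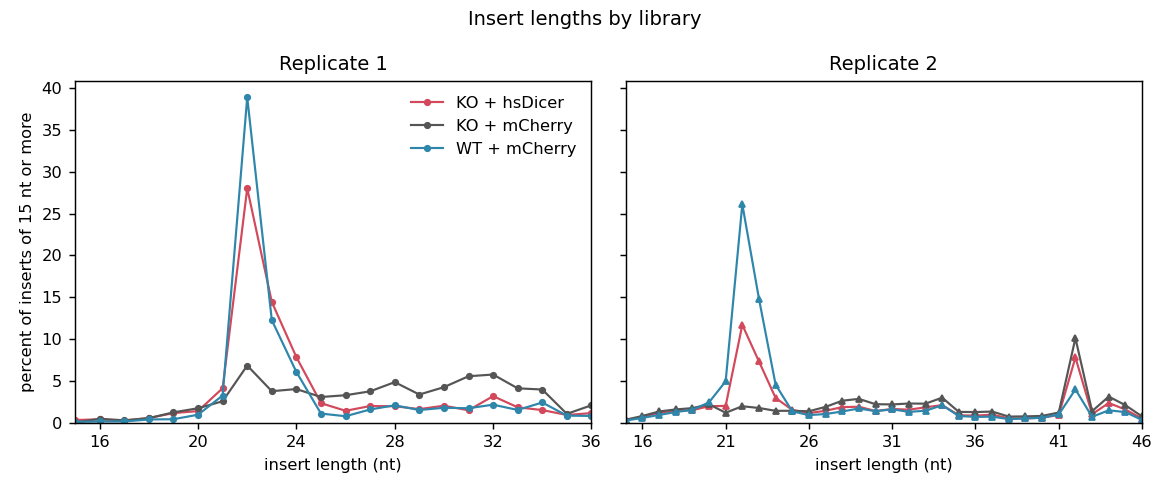
Percent of inserts of 15 nt or more (vertical axis) at each insert length in nt (horizontal axis) in rescue (KO + hsDicer), knockout (KO + mCherry) and wild type (WT + mCherry), 1 line per library, with replicate 1 and replicate 2 in separate panels. The 22 nt peak holds 28% and 11.7% of inserts in rescue, 6.84% and 1.98% in knockout, and 38.9% and 26.1% in wild type.

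Per arm, 32 of the 551 arms rose in rescue against knockout at an adjusted p under 0.05 (5.81%), 20 of 280 from the 5p side and 12 of 271 from the 3p side, and 0 arms fell (0%). The test was edgeR's quasi-likelihood test with Benjamini-Hochberg adjustment, fitted over all 16 libraries with the insert totals as library sizes. The spread between replicates was wide: the fit's common biological coefficient of variation was 2.11, and it shared 1 trend of the spread over all arms, so standard errors and p-values come from that trend and not from each arm's own pair of libraries. At an unadjusted p under 0.05 there were 84 arms, and 3 arms fell under edgeR's trimmed-mean (TMM) scaling and 10 under DESeq2. With DESeq2 size factors 11 of the 29 named arms that rose had a log2 difference below 0. Of the 551 arms, 121 were higher in both rescue libraries than in both knockout libraries (22%), among them all 32 that rose, and 0 were lower in both than in both knockout libraries. The scaling sets how a change of many miRNAs at once reads. The median log2 difference over all arms was 5.83 with insert totals. This median rests on rescue replicate 2: it was 0 with that library left out, and 5.48 with rescue replicate 1 left out. TMM factors moved the median of 5.83 by -3.18, to 2.64, and DESeq2 size factors by -5.83, to 0. Both scalings assume that most arms are unchanged, and how far that assumption makes these shifts was not tested. All differences below are those with insert totals.

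The most abundant arm in both rescue and both wild-type libraries was miR-22-3p, whose hairpin lies in an exon of the non-coding gene Mir22hg and of an annotated Tlcd2 transcript (chr11:75463716-75463810, plus strand, GRCm38). It stood at 108798 and 40472 CPM in rescue, 2869.6 and 466 CPM in knockout, and 180289 and 111207 CPM in wild type. It rose by 5.48 ± 0.72 on the log2 scale (estimate ± SE, edgeR adjusted p = 1.18e-11) and reached 60.3% and 36.4% of wild type in the same replicate. miR-21a-5p, whose hairpin overlaps the untranslated region of Vmp1 (chr11:86584067-86584158, minus strand) and which is abundant in fibroblasts and mesenchymal cells, had 56011 and 14247 CPM in rescue, 3274 and 817 CPM in knockout, and 61379 and 40765 CPM in wild type. It rose by 4.10 ± 0.89 (adjusted p = 0.000354) and reached 91.3% and 34.9% of wild type. Among the 32 arms miR-21a-5p had the smallest log2 difference, and it was the arm with most reads left in both knockout libraries.

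**Figure D2:**
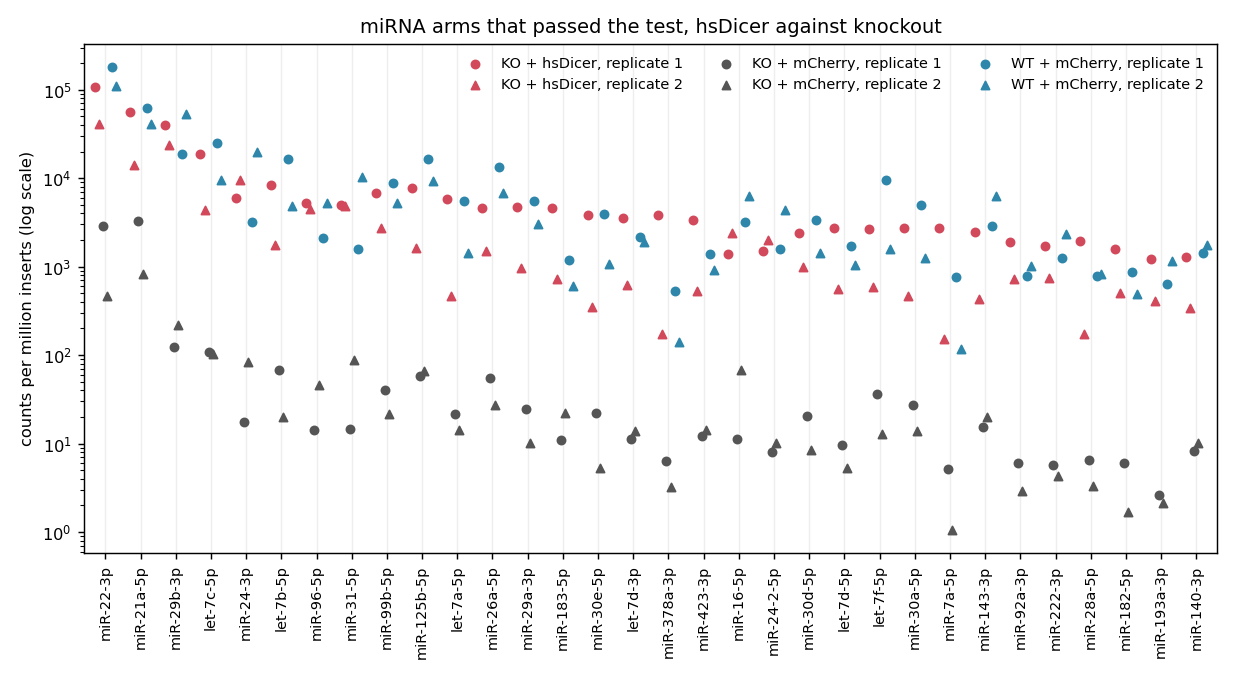
Level (CPM, log axis) of each of the 32 arms that rose, 1 point per library of rescue (KO + hsDicer), knockout (KO + mCherry) and wild type (WT + mCherry), with replicate 1 as circles and replicate 2 as triangles. In every arm both rescue points lie above both knockout points, from miR-22-3p (108798 and 40472 CPM in rescue) to miR-140-3p (1288 and 345 CPM in rescue).

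To say how far arms returned, each rescue level was divided by the wild-type level of the same replicate, over the 87 arms with at least 100 CPM in both wild-type libraries; all 32 arms that rose are among the 87. The median return was 69.5% in replicate 1 (interquartile range 11.0% to 147%) and 34.9% in replicate 2 (27.2% to 49.7%). The same arms in knockout stood at a median of 0.491% of wild type in replicate 1 (0.401% to 0.596%) and 0.5% in replicate 2 (0.274% to 1.03%). Replicate 2 was the more even: 62 of its 87 arms lay between 10% and 50% of wild type, 18 between 50% and 100%, 4 at 100% or over, 3 between 1% and 10%, and 0 below 1%. In replicate 1, 12 arms lay between 10% and 50%, 26 between 50% and 100%, 5 between 100% and 150%, 22 at 150% or over, 3 between 1% and 10%, and 19 below 1%. By side of the hairpin, the 56 arms of the 5p side had medians of 69.0% and 36.1% and the 31 of the 3p side 78.1% and 32.2%, a gap between sides smaller than the gap between replicates. These percentages have no test of their own.

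**Figure D3:**
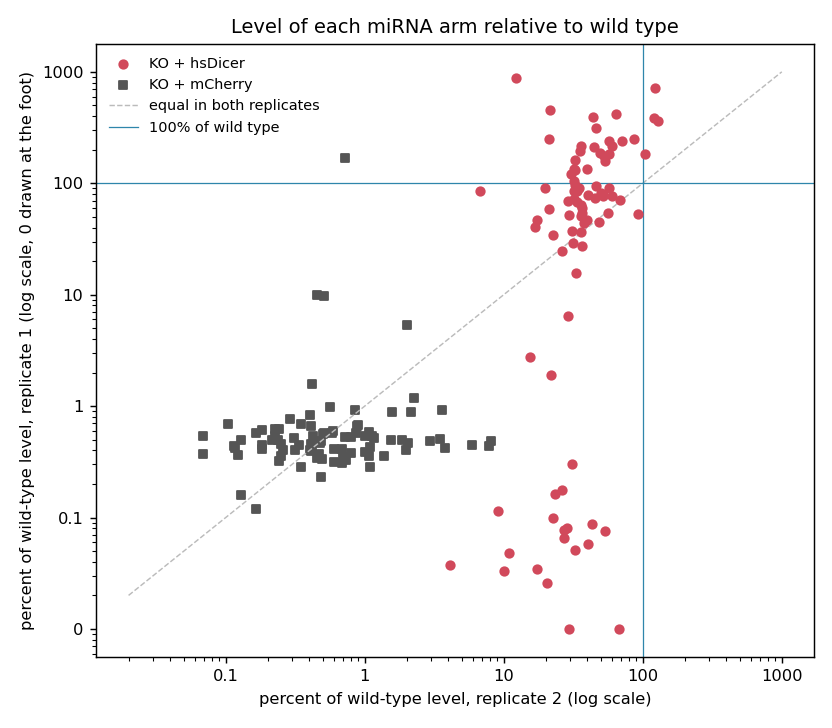
Level of each of the 87 arms as percent of the wild-type level of the same replicate (log axes; replicate 2 horizontal, replicate 1 vertical, with 0 drawn at the foot) in rescue (circles) and knockout (squares); blue lines mark 100% and the dashed line equal values. In replicate 2 the rescue arms gather between 4.09% and 127.97%, while in replicate 1 they run up to 873% and 19 lie below 1%.

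The 19 arms below 1% of wild type in replicate 1 were near zero in that rescue library and present in the other one. None of the 19 exceeded 1.11 CPM in rescue replicate 1, while all had 22.1 to 368 CPM in rescue replicate 2, with returns of 4.09% to 67.6% (median 27.2%). miR-140-5p had 0.416 and 368 CPM in rescue, 2.13 and 7.77 CPM in knockout, and 517 and 1286 CPM in wild type. miR-25-3p had 0.347 and 347 CPM in rescue, 1.84 and 1.69 CPM in knockout, and 459 and 653 CPM in wild type. All 19 lay below the knockout library in replicate 1 and above it in replicate 2, and 0 of them passed the test. Such absence in replicate 1 was also seen in wild type: of arms with at least 100 CPM in replicate 2, 12 of 82 in rescue, 0 of 4 in knockout and 31 of 126 in wild type had under 1 CPM in replicate 1. At the depth of replicate 1, 3 reads correspond to 0.208 CPM in rescue, 0.290 CPM in knockout and 0.173 CPM in wild type, a limit that covers counting error only.

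The knockout level in replicate 1 moved with the wild-type library of that replicate. Over the 87 arms the rank correlation with wild type was 0.758 in rescue replicate 1, 0.887 in rescue replicate 2, 0.953 in knockout replicate 1 and 0.751 in knockout replicate 2. Fragments that match no miRNA hairpin give a further measurement. There were 168 such fragments that wild-type replicate 1 held at 2000 reads or more and all 3 libraries of replicate 2 lacked. Of these, rescue replicate 1 held 123 and knockout replicate 1 held all 168. Over all 168, with absent fragments as 0, the median was 0.0422% of the wild-type level in rescue. In knockout it was 0.407% (interquartile range 0.273% to 0.494%). In replicate 2, 47 fragments met the same rule and stood at medians of 13.5% in rescue and 15.9% in knockout. In replicate 1 the median knockout level of the 87 arms, 0.491% of wild type, is close to the 0.407% of these fragments. Whether Dicer makes some of the fragments was not tested. How much of the knockout level in that library is reads of the wild-type library was not tested, and the 24.7-fold difference and the comparison of the 19 arms with knockout replicate 1 rest on it.

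The let-7 family, which shares the seed GAGGUAG and restrains growth and stem-cell programmes through targets such as Lin28 and Hmga2, gave 6 of the 32 arms. Of its 20 tested arms 5 of 9 from the 5p side rose (let-7a, let-7b, let-7c, let-7d and let-7f) and 1 of 11 from the 3p side did (let-7d-3p). Over all arms 5.81% rose, a share to set beside the count of this and every later list. This share does not allow for the level of an arm. All 32 arms that rose are among the 87 with at least 100 CPM in both wild-type libraries, and no arm outside the 87 rose. Whether the share of any list differs from that of equally abundant arms was not tested. The let-7 list median was 6.81 against 5.83 over all arms, and 0.01 under DESeq2. let-7c-5p had 18675 and 4336 CPM in rescue, 108 and 103.7 CPM in knockout, and 25206 and 9584 CPM in wild type, and rose by 6.76 ± 1.33 (adjusted p = 7.4e-05). let-7b-5p had 8385 and 1734 CPM in rescue, 68.0 and 20.04 CPM in knockout, and 16538 and 4809.7 CPM in wild type (log2 difference 6.84, adjusted p = 0.00143). Their returns were 74.1% and 45.2% of wild type for let-7c-5p and 50.7% and 36.1% for let-7b-5p. let-7a-5p reached 105% and 32.0% of wild type, let-7d-5p 159% and 53.9%, and let-7f-5p 27.5% and 36.3%, the lowest return in replicate 1 of the 5. Summed over the family, rescue held 56943 and 11305 CPM, knockout 1710.5 and 213 CPM, and wild type 79099.7 and 27246 CPM, a return of 72.0% and 41.5%.

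let-7i-5p stood apart within the family in 1 knockout library. It had 11882 and 2474 CPM in rescue, 1440.0 and 22.1 CPM in knockout, and 14604 and 4905 CPM in wild type, with a log2 difference of 3.30 ± 1.30 that did not pass (adjusted p = 0.129). In knockout replicate 1, 95.3% of the let-7i-5p reads were 1 distinct sequence of 24 nt, a length with 0.763 and 0 CPM in rescue, 1372 and 0 CPM in knockout, and 0.231 and 0 CPM in wild type. At 22 nt, the usual length, let-7i-5p had 11355 and 2424 CPM in rescue, 66.0 and 18.6 CPM in knockout, and 14354 and 4757 CPM in wild type. So at that length the knockout stood at 0.460% and 0.391% of wild type and the rescue at 79.1% and 51%. These rescue values lay within the wide spread of returns given above for the other let-7 arms. The hairpin (chr10:122985640-122985724, minus strand, in an exon of the transcribed pseudogene D630033A02Rik) is shown to place the arms, which are in capitals, with the 5p arm first.
Mirlet7i: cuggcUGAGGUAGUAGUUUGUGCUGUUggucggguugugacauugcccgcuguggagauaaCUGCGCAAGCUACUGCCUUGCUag

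The same knockout library held a few other arms at high levels. For miR-20a-3p, miR-10b-5p and miR-350-5p these levels were above those of the other 5 libraries, and nearly all reads were 1 distinct sequence. miR-20a-3p had 0.694 and 32.9 CPM in rescue, 1571 and 2.25 CPM in knockout, and 0.231 and 42.2 CPM in wild type, and its reads in knockout replicate 1 were 99.98% 1 sequence that starts 4 bases upstream of the annotated end. miR-10b-5p had 328 and 6.87 CPM in rescue and 1412 and 0 CPM in knockout, against 0.347 and 2.49 CPM in wild type. miR-350-5p had 0.347 and 0 CPM in rescue and 1092 and 0 CPM in knockout, against 0.231 and 0.878 CPM in wild type. miR-181a-5p had 0.832 and 111 CPM in rescue, 1821 and 2.94 CPM in knockout, and 1078 and 410.0 CPM in wild type, with its main sequence at 70.4% of the reads in knockout replicate 1 against 64.4% in wild-type replicate 1. miR-125a-5p, which was lower in knockout than in rescue in both replicates, had 3617 and 2101 CPM in rescue, 955 and 34.4 CPM in knockout, and 9754 and 6819.9 CPM in wild type. In none of these 5 arms did the groups of rescue and knockout separate with the knockout on top in both replicates, and none passed the test (edgeR adjusted p from 0.129 to 0.671). Under TMM miR-350-5p, miR-20a-3p and miR-181a-5p were called as fallen, under DESeq2 miR-10b-5p was as well, and with the 4 libraries alone miR-350-5p was (adjusted p = 0.0199). Their part in the counts of families below was not tested.

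The list of miRNAs abundant in mesenchymal and fibroblast-like cells, which holds miR-22, miR-21a, miR-31, miR-143, miR-145a, miR-199a, miR-199b and miR-214, summed to 176488 and 61769.6 CPM in rescue, 6216 and 1495.04 CPM in knockout, and 255881 and 175025 CPM in wild type. It had 4 of 15 tested arms that rose, against 5.81% of all arms (median 6.10, and -0.74 under DESeq2). These were miR-22-3p and miR-21a-5p, given above, miR-31-5p and miR-143-3p. miR-31-5p, which acts in cell migration and osteogenic differentiation, had 4984 and 4816 CPM in rescue, 14.5 and 88.7 CPM in knockout, and 1586 and 10402 CPM in wild type (log2 difference 6.57 ± 1.58, adjusted p = 0.00183). Its rescue levels were nearly equal while the wild-type libraries differed, so its return read 314% and 46.3%. miR-143-3p, known from smooth muscle and stromal cells, had 2469.9 and 429.8 CPM in rescue, 15.2 and 19.9 CPM in knockout, and 2909 and 6358 CPM in wild type, a return of 84.9% and 6.76%. That second value was among the 3 lowest of replicate 2, with miR-129-5p at 4.09% and miR-574-3p at 9.04%. The other arms with the lowest returns by the higher of both replicates were miR-130a-3p (0.0333% and 10.1%), miR-615-3p (0.0483% and 10.8%), miR-100-5p and miR-872-5p (0.0343% and 17.3%). miR-214-3p, a miRNA of skeletal and stromal development, had 1399 and 467 CPM in rescue, 13.6 and 2.07 CPM in knockout, and 2704 and 1598 CPM in wild type and missed the threshold (adjusted p = 0.0611). miR-199a-5p reached 28.9% and 31.7% of wild type (adjusted p = 0.34).

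The miR-29 family, which targets collagens and other matrix genes, returned from the 3p side. Of its 7 tested arms 2 rose, miR-29b-3p and miR-29a-3p, against 5.81% of all arms (list median 5.83, and 0 under DESeq2). miR-29b-3p, from hairpins that include one in an exon of Gm27019 (chr6:31063023-31063093, minus strand), had 40354 and 23678 CPM in rescue, 124 and 219 CPM in knockout, and 18898 and 53226 CPM in wild type. It rose by 7.54 ± 1.08 (adjusted p = 8.22e-10), with the second smallest p of all arms, and stood at 213.5% of wild type in replicate 1 and 44.5% in replicate 2. miR-29a-3p had 4784 and 977 CPM in rescue, 24.9 and 10.2 CPM in knockout, and 5591 and 3032 CPM in wild type (log2 difference 7.36, adjusted p = 0.00217). Between replicates, miR-29b-3p ran in opposite directions in rescue and in wild type.

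The clusters of miR-23, miR-27 and miR-24 had 2 of 11 arms that rose, against 5.81% of all arms (median 7.28, and 0.63 under DESeq2). Both came from miR-24 hairpins. miR-24-3p had 6009 and 9609 CPM in rescue, 17.5 and 82.9 CPM in knockout, and 3222 and 19649 CPM in wild type (log2 difference 7.28 ± 1.5, adjusted p = 0.000175). Its partner from the 5p side of the Mir24-2 hairpin, miR-24-2-5p, had 1513 and 1984 CPM in rescue, 7.94 and 10.3 CPM in knockout, and 1603 and 4317 CPM in wild type (7.58 ± 2.13, adjusted p = 0.0158). let-7d and miR-24 were the miRNAs with a risen arm from both sides. As miR-24-3p has the same sequence in Mir24-1 and Mir24-2, its reads cannot be assigned to either hairpin. The Mir24-2 hairpin, in an exon of the non-coding gene Gm26532 (chr8:84208815-84208921, plus strand), is shown with the 5p and then the 3p arm in capitals.
Mir24-2: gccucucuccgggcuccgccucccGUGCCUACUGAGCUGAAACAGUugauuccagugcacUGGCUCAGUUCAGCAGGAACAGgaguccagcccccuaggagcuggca
miR-27b-3p had 2251 and 204 CPM in rescue, 2.52 and 9.33 CPM in knockout, and 258 and 1666 CPM in wild type, with the highest return of the 87 arms in replicate 1, at 873%, and 12.3% in replicate 2 (adjusted p = 0.079). miR-23a-3p had 0 and 216 CPM in rescue, 0.290 and 3.57 CPM in knockout, and 124.9 and 735 CPM in wild type.

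The miR-30 family, whose members act in epithelial state and autophagy, had 3 of 11 arms that rose, against 5.81% of all arms. All 3 were from the 5p side, and the list median was 6.54 (0.21 under DESeq2). miR-30e-5p had 3796 and 347 CPM in rescue, 22.2 and 5.32 CPM in knockout, and 3966 and 1064 CPM in wild type. miR-30a-5p had 2708 and 461 CPM in rescue, 27.01 and 14.0 CPM in knockout, and 5012 and 1252 CPM in wild type, and miR-30d-5p had 2414 and 988 CPM in rescue, 20.5 and 8.52 CPM in knockout, and 3407 and 1443 CPM in wild type. The family sum returned to 70.2% and 45.5%. miR-26a-5p, a regulator of the Polycomb gene Ezh2, was the 1 of 5 miR-26 arms that rose (median 7.15, and 0.41 under DESeq2), with 4655 and 1522 CPM in rescue, 54.9 and 27 CPM in knockout, and 13491 and 6718 CPM in wild type. It was one of the arms that returned least among those that rose, at 34.5% and 22.7%. miR-26b-5p had 1094 and 521 CPM in rescue, 4.65 and 6.39 CPM in knockout, and 1418 and 871 CPM in wild type and missed the threshold (adjusted p = 0.0611).

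Of the group of miR-99, miR-100 and miR-125, which is co-transcribed with let-7 genes, 2 of 11 arms rose, against 5.81% of all arms. The median was 5.55, and -0.50 under DESeq2. miR-99b-5p had 6785 and 2739.8 CPM in rescue, 40.3 and 21.7 CPM in knockout, and 8850.1 and 5266 CPM in wild type (7.26 ± 1.51, adjusted p = 0.000175). miR-125b-5p, which tempers p53 and differentiation genes, had 7823 and 1624 CPM in rescue, 58.5 and 65.8 CPM in knockout, and 16628 and 9398 CPM in wild type (6.25 ± 1.48, adjusted p = 0.00178). miR-99b-5p reached 76.7% and 52.0% of wild type and miR-125b-5p 47% and 17.3%, without a test of that difference. miR-100-5p, 1 of the arms that returned least, had 27.3 and 41.9 CPM in rescue, 4.16 and 10.3 CPM in knockout, and 994 and 271 CPM in wild type, or 2.75% and 15.4%.

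The cluster of miR-183, miR-96 and miR-182, best known from sensory cells and lying on chromosome 6 with no annotated host gene, returned with its 3 5p arms. These were the 3 that rose of 6 tested, against 5.81% of all arms (median 7.15, and 0.23 under DESeq2). miR-96-5p had 5287 and 4531 CPM in rescue, 14.1 and 46.2 CPM in knockout, and 2134 and 5233 CPM in wild type. miR-183-5p had 4589.8 and 733 CPM in rescue, 11.0 and 21.9 CPM in knockout, and 1193 and 608 CPM in wild type, and miR-182-5p had 1584 and 506 CPM in rescue, 6.00 and 1.69 CPM in knockout, and 866 and 486 CPM in wild type. Their returns were among the highest: 248% and 86.6% for miR-96-5p, 385% and 121% for miR-183-5p, and 183% and 104% for miR-182-5p. The cluster sum stood at 11461 and 5775 CPM in rescue, 31.2 and 75.6 CPM in knockout, and 4193 and 6327 CPM in wild type. miR-183-5p and miR-182-5p were thus above the wild-type library of their replicate in both replicates, without a test of that difference. Beside them only miR-378a-3p and miR-7a-5p did so among the 87 arms. miR-378a-3p had 3824 and 174 CPM in rescue, 6.29 and 3.19 CPM in knockout, and 531 and 141.3 CPM in wild type, and miR-7a-5p had 2763 and 151.2 CPM in rescue, 5.13 and 1.06 CPM in knockout, and 755 and 118 CPM in wild type.

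The growth-linked miR-17-92 family and its paralogs had 1 of 18 arms that rose, near the 5.81% over all arms (median 5.66, and -0.49 under DESeq2). That arm was miR-92a-3p, with 1898 and 723 CPM in rescue, 6.10 and 2.94 CPM in knockout, and 793 and 1017 CPM in wild type (adjusted p = 0.0262). Under TMM and under DESeq2 1 arm was called as fallen, miR-20a-3p. miR-17-5p had 1063 and 207 CPM in rescue, 0.871 and 0.814 CPM in knockout, and 0.173 and 246 CPM in wild type, and did not pass (9.54 ± 3.52, adjusted p = 0.0948). Its rescue and knockout libraries did not overlap, yet wild-type replicate 1 was at 0.173 CPM. miR-20a-5p had 0 and 138 CPM in rescue, 0.581 and 4.20 CPM in knockout, and 123 and 204 CPM in wild type. Of the miR-15 and miR-16 family, known for targeting cyclins and Bcl2, 1 of 11 arms rose, also close to the share over all arms (median 5.25, and -1.15 under DESeq2), miR-16-5p, with 1395 and 2379 CPM in rescue, 11.2 and 67.3 CPM in knockout, and 3171 and 6304 CPM in wild type, or 44.0% and 37.7% of wild type. Its relative miR-15b-5p had 809.9 and 555 CPM in rescue, 1.36 and 91.1 CPM in knockout, and 52.7 and 1229 CPM in wild type, and did not pass.

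Single arms rose in 5 further short lists, where 1 call more or less decides the share, and 5.81% of all arms rose. From the cluster of miR-221 and miR-222 it was miR-222-3p, which targets the cell-cycle inhibitor p27, with 1701 and 749 CPM in rescue, 5.71 and 4.26 CPM in knockout, and 1263 and 2353 CPM in wild type (1 of 4 arms, median 7.82, and 1.09 under DESeq2). From miR-140, the cartilage miRNA, it was the 3p arm, with 1288 and 345 CPM in rescue, 8.23 and 10.2 CPM in knockout, and 1432 and 1748 CPM in wild type (1 of 2, median 5.84, and -0.64 under DESeq2). From miR-193 and miR-365 it was miR-193a-3p, with 1226 and 411 CPM in rescue, 2.61 and 2.13 CPM in knockout, and 633 and 1158 CPM in wild type (1 of 7, median 7.15, and 1.62 under DESeq2). From miR-28, miR-151 and miR-708 it was miR-28a-5p, with 1954 and 174 CPM in rescue, 6.49 and 3.32 CPM in knockout, and 779 and 819 CPM in wild type (1 of 6, median 6.61, and 0.23 under DESeq2). The fifth was miR-7a-5p of the miR-7 list (1 of 3, median 5.90, and -1.15 under DESeq2). In a list of miR-378a and miR-423 2 of 4 arms rose (median 6.81, and 0.37 under DESeq2), miR-378a-3p and miR-423-3p, the second with 3365 and 524 CPM in rescue, 12.2 and 14.2 CPM in knockout, and 1392 and 909 CPM in wild type.

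In 6 other family lists no arm passed the test, where 5.81% of all arms did: miR-181 (6 arms tested), miR-10 (3), miR-101 (4), miR-148 with miR-152 (6), miR-34 (6) and the miR-379 cluster (2). The miR-10 median was -1.85 (-8.81 under DESeq2), and its main arm is miR-10b-5p, given above. Under DESeq2 the miR-10 and miR-181 lists had 1 arm each called as fallen and the miR-34 list 2 as risen, and under TMM the miR-181 list had 1 as fallen. For miR-181 (median 5.17, and -0.52 under DESeq2) the sum was 399 and 229.9 CPM in rescue, 1824 and 13 CPM in knockout, and 1631 and 755 CPM in wild type. The knockout sum in replicate 1 is the miR-181a-5p reads described above. For miR-148 and miR-152 (median 4.49, and -1.34 under DESeq2) the sum was 55.8 and 425 CPM in rescue, 13.1 and 12.2 CPM in knockout, and 3655 and 1839.8 CPM in wild type, the lowest return of these families in replicate 1 at 1.53%, with 23.1% in replicate 2. Its main arm miR-148a-3p had 55.4 and 375 CPM in rescue, 10.8 and 7.95 CPM in knockout, and 2941 and 1707 CPM in wild type (4.52 ± 2.31, adjusted p = 0.326). For miR-101 (median 4.67, and -0.17 under DESeq2) the family sum reached 70.6% and 51.7% of wild type.

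Grouped by seed in place of name, 20 seed groups had at least 1000 CPM in both wild-type libraries. Their median return was 80.0% in replicate 1, from 1.73% to 314%, with 7 above wild type, and 35.7% in replicate 2, from 19.7% to 86.6%, with 0 above. The seed with the lowest return in replicate 1 was CAGUGCA (miR-148 and miR-152), at 1.73% and 23%. The seeds GAGGUAG (let-7), at 69.4% and 43.2%, and GUAAACA (miR-30a, miR-30c and miR-30e), at 70.1% and 38.3%, lay near the medians. Arms with no mature sequence in the reference, such as miR-30d-5p, are in no seed group. As shares of all miRNA reads, the seeds of miR-22-3p and miR-21a-5p lay nearer to wild type in rescue than in knockout: AGCUGCC (miR-22-3p) held 28.5% and 28% in rescue, 18.6% and 15.9% in knockout, and 37.9% and 29.6% in wild type. AGCUUAU (miR-21a-5p) held 14.7% and 9.87% in rescue, 21.2% and 27.8% in knockout, and 12.9% and 10.8% in wild type. For both of these seeds the knockout libraries lay outside the range of the rescue libraries, low for AGCUGCC and high for AGCUUAU. The miR-29 seed AGCACCA held 11.8% and 17.1% in rescue, 0.97% and 7.83% in knockout, and 5.14% and 15.0% in wild type.

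**Figure D4:**
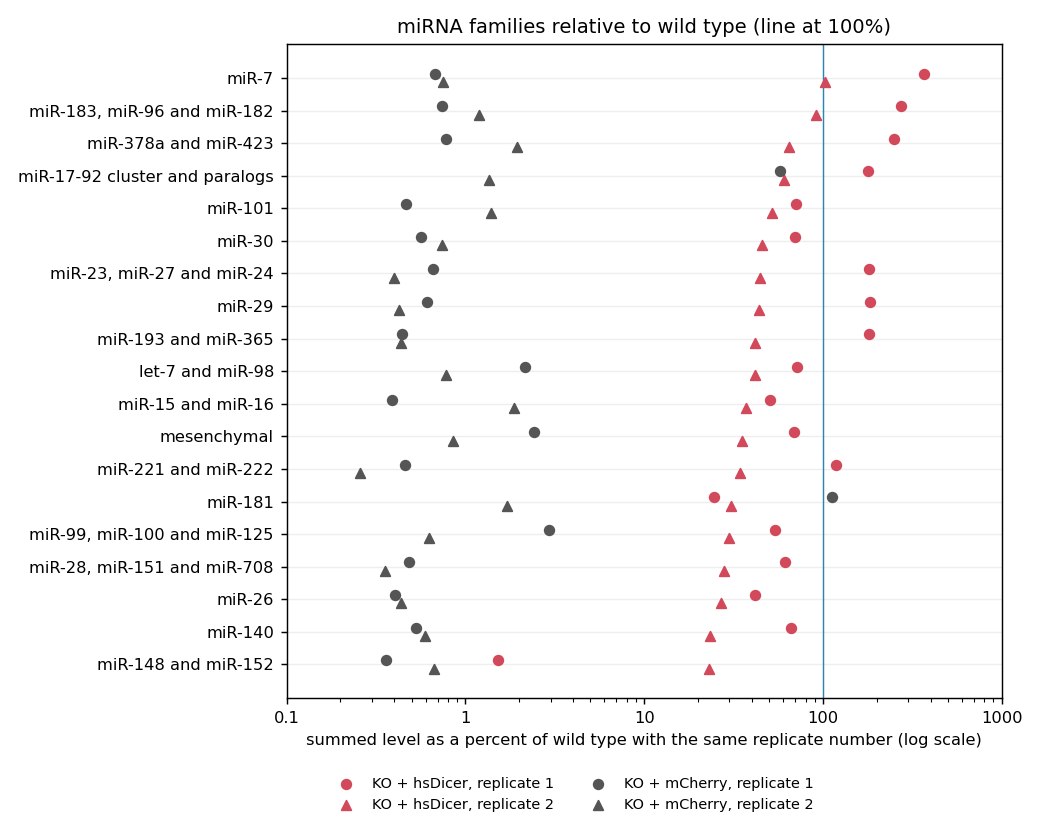
Summed level of each of 19 family lists as percent of the wild-type level with the same replicate number (log axis), for rescue and knockout, with replicate 1 as circles and replicate 2 as triangles and a line at 100%. The let-7 sum stands at 72.0% and 41.5% in rescue and 2.16% and 0.783% in knockout, and the sum of miR-183, miR-96 and miR-182 at 273% and 91.3% in rescue.

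Arm by arm, the rescue put 49.4% and 41.7% of its miRNA reads on the 5p side, against 69.1% and 65.7% in knockout, and 49.7% and 41.1% in wild type. The rescue thus lay close to the wild-type library of its replicate, and its mean differed from that of knockout by -21.9 points (two-sided exact permutation p = 0.333, the smallest possible). In knockout replicate 1, 110206 reads lay on the 5p side, among them 33822 of miR-21a-5p, 18814 of miR-181a-5p and 14877 of let-7i-5p. A further 14584 were miR-10b-5p, 11277 miR-350-5p and 9869 miR-125a-5p, while 16233 reads on the 3p side were miR-20a-3p. In knockout replicate 2, 13042 of 30785 reads on the 5p side were miR-21a-5p. How far these few arms make the difference was not tested. Per hairpin, 0 of 183 passed edgeR's test of the 5p to 3p ratio (0%), and 0 had an unadjusted p under 0.05 there; a limma fit of log2 ratios also called 0, with 7 at an unadjusted p under 0.05. With so wide a spread between replicates this does not show that the ratios were equal. Over the 61 hairpins with at least 1000 reads in each rescue and wild-type library, the rescue kept the major arm of wild type in 57 in replicate 1 and in 59 in replicate 2. The 5p share lay within 10 percentage points of wild type in 50 and 57 of the 61, and the median absolute difference was 0 and 0.822 points. In replicate 1 many hairpins, such as miR-21a, let-7b and miR-31, had 0 reads on the minor arm in both rescue and wild type. The likeness there rests on empty minor arms and does not measure a match of ratios.

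Named hairpins show both cases. For Mir22 the 5p share was 0.433% and 0.370% in rescue, 0.142% and 1.02% in knockout, and 0.382% and 0.400% in wild type. For let-7d, whose arms are more even, it was 43.6% and 47.4% in rescue, 46.1% and 27.7% in knockout, and 44.1% and 35.2% in wild type, and for miR-24 it was 20.1% and 17.6% in rescue, 31.2% and 11.2% in knockout, and 33.2% and 18.7% in wild type. In these 3 hairpins the major arm was the same in all 6 libraries. The major arm differed from wild type in 1 replicate in 6 of the 61 hairpins. miR-145a had a 5p share of 99.98% and 41.5% in rescue, 20% and 73.9% in knockout, and 0% and 49.5% in wild type. miR-17 had 61.8% and 80.9% in rescue, 23.1% and 76.5% in knockout, and 0.0346% and 62.0% in wild type, and miR-872 had 0.0633% and 94.4% in rescue, 64.7% and 98% in knockout, and 81.1% and 90.7% in wild type. With miR-28a, at 61.9% and 48.8% in rescue, 39.4% and 44.5% in knockout, and 27.7% and 48.8% in wild type, these differed in replicate 1. The other 2 differed in replicate 2. miR-27a had 97% and 75.3% in rescue, 22% and 80.3% in knockout, and 98.4% and 43.4% in wild type, and miR-140 had 0.0323% and 51.6% in rescue, 20.6% and 43.2% in knockout, and 26.5% and 42.4% in wild type. Both arms reached 20 reads in 17 and 127 hairpins in rescue and in 10 and 26 in knockout, so most arm ratios rest on replicate 2.

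**Figure D5:**
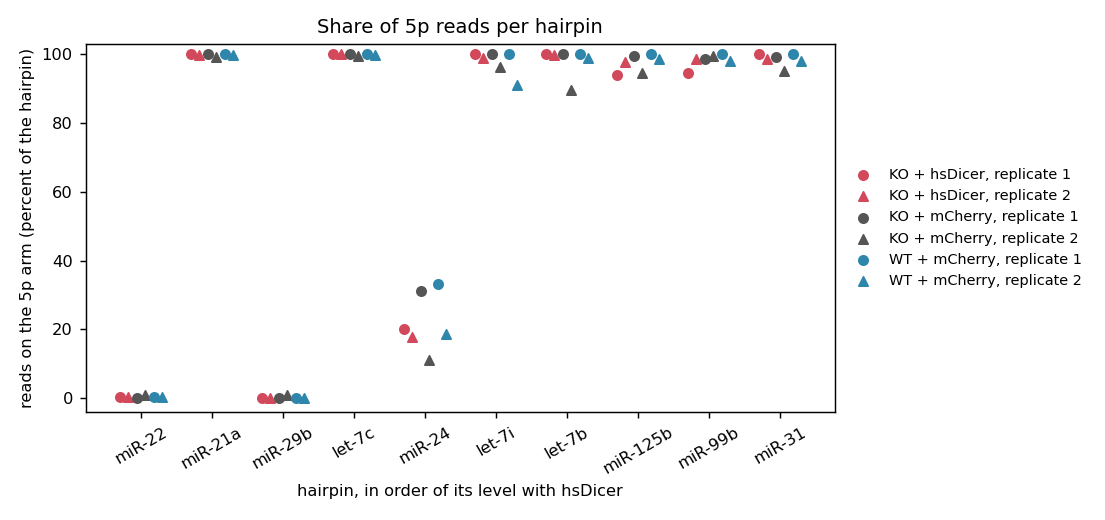
Percent of a hairpin's reads on its 5p arm (vertical axis) in the 10 hairpins with the most miRNA reads in rescue (horizontal axis, in that order), 1 point per library of rescue, knockout and wild type. The same arm leads in all 6 libraries in each hairpin, and miR-24 spreads most, with 20.1% and 17.6% in rescue, 31.2% and 11.2% in knockout, and 33.2% and 18.7% in wild type.

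The ends of the reads were compared over the 60 arms with at least 20 reads in each rescue and knockout library. The end cut by Drosha was at the usual wild-type position in a median of 99.98% and 98.1% of reads in rescue, 99.7% and 98.6% in knockout, and 99.8% and 98.2% in wild type (two-sided exact permutation p = 1 between rescue and knockout). The end cut by Dicer was there in 97.8% and 86.5% in rescue, 89.4% and 60.1% in knockout, and 92% and 86.4% in wild type (exact permutation p = 0.667). Within 1 nt of the usual position, the medians were 100% and 99.1% in rescue and 100% and 97.5% in knockout. The rescue thus matched or exceeded the wild-type share in each replicate, and the lowest value was knockout replicate 2; the groups overlap. The most frequent Dicer end differed from that of the wild-type library of the same replicate in 11 and 1 of the 60 arms in rescue, 0 of them in both replicates, and in 5 and 19 arms in knockout, 4 of them in both. These 4 were miR-21a-5p, miR-28a-5p, miR-101b-3p and miR-674-5p. In miR-28a-5p, miR-101b-3p and miR-674-5p it was wild-type replicate 1 that lay off the usual end, while knockout replicate 1 lay at it. Of the 4, only miR-21a-5p was off the usual end in both knockout libraries. Over the 60 arms 2 were off it in both knockout libraries and 1 in both rescue libraries. The wild-type libraries differed from each other in 8 of the 60 arms.

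The shifted Dicer end of miR-21a-5p in knockout shows in its lengths. Reads of 24 nt, longer than the RefSeq mature sequence, made up 17.6% and 26.2% of its reads in rescue, 82.8% and 74.7% in knockout, and 16.6% and 21.4% in wild type, and reads of 23 nt made up 66.7% and 59.2% in rescue, 6.47% and 11.4% in knockout, and 63.9% and 57.8% in wild type. In level, the 23 nt form stood at 37360 and 8438 CPM in rescue, 212 and 92.9 CPM in knockout, and 39222 and 23570 CPM in wild type, so that knockout held 0.540% and 0.394% of wild type. The 24 nt form stood at 9888 and 3738 CPM in rescue, 2711 and 610 CPM in knockout, and 10213 and 8705 CPM in wild type, so that knockout held 26.5% and 7.01% of wild type. The smaller log2 difference of miR-21a-5p between rescue and knockout thus rests on 24 nt reads left in both knockout libraries.

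miRNAs listed as reaching Dicer from capped transcripts, or as not cut by Dicer, had 0 of 4 arms that passed (median 2.99, with -0.61 under TMM and -3.54 under DESeq2). So short a list cannot be read against the 5.81% over all arms. miR-320-3p had 993 and 172 CPM in rescue, 6.78 and 3.32 CPM in knockout, and 1254 and 333 CPM in wild type (6.85 ± 2.74, adjusted p = 0.139). miR-484 had 438 and 138 CPM in rescue, 1.45 and 0.438 CPM in knockout, and 240.0 and 241 CPM in wild type (8.24 ± 3.62, adjusted p = 0.205). In both arms the rescue libraries lay above the knockout libraries. miR-451a, which does not need Dicer, was at 0 in both rescue libraries, 0 and 2.82 CPM in knockout and 0 in both wild-type libraries. None of 6 mirtron arms, which are spliced from short introns, passed, and this list too is too short to set against 5.81%.

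Of the marker lists of other cells, those of blood, endothelium, neurons and muscle passed 100 CPM in at least 1 of the 6 libraries. In the blood list 0 of 7 arms passed, and the sum was 1958 and 39.0 CPM in rescue, 2.71 and 3.01 CPM in knockout, and 377 and 192 CPM in wild type. Except in knockout replicate 2 it was mostly miR-155-5p, with 1705 and 38.9 CPM in rescue, 2.61 and 0.188 CPM in knockout, and 377 and 181 CPM in wild type. In knockout replicate 2 it was mostly miR-451a, also a member of the blood list, with 45 reads. The arms of miR-142a, miR-144 and miR-150, which define blood lineages, were at 0 in rescue and knockout. The neuronal list summed to 0 and 17.1 CPM in rescue, 0 and 0.125 CPM in knockout, and 0 and 136.96 CPM in wild type, and the muscle list to 0.139 and 43.8 CPM in rescue, 0.484 and 0.313 CPM in knockout, and 0.231 and 112 CPM in wild type. The endothelial list summed to 437 and 60.1 CPM in rescue, 1.16 and 0.376 CPM in knockout, and 66.0 and 298 CPM in wild type. The pluripotent list gave 0 and 18.2 CPM in rescue and 0 in both knockout and both wild-type libraries, from miR-294-3p and miR-295-3p, the epithelial list gave 0 and 1.28 CPM in rescue, 0 in both knockout libraries, and 0 and 2.83 CPM in wild type, and the liver list was at 0 in all 6 libraries. In none of these short lists did an arm pass the test, where 5.81% of all arms did, and miR-155-5p itself missed it (9.28 ± 3.21, adjusted p = 0.0611).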

How the data were processed

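The authors deposited, for each library, its distinct reads with their counts, still holding the 3′ adapter; read from the file contents, nothing had been aligned or normalized, and no tool is named in the labels. The adapter was removed where 12 bases of it lay inside a read or at least 5 at its end, and inserts of at least 15 nt gave the library size. Inserts of 18 to 26 nt that matched GENCODE M21 (GRCm38) miRNA hairpins exactly, in sense, counted for the 5p arm where their middle fell before the middle between the arms and for the 3p arm elsewhere. Copies with the same mature sequence were merged, and reads matching differing arms were left out. Arms with at least 20 reads over the 16 libraries were tested with edgeR 4.0.16 in R 4.3.3 (quasi-likelihood, 8 groups, insert totals as library sizes, Benjamini-Hochberg threshold 0.05). The fit was also run on simulated counts with a far smaller spread between libraries than the real ones. That run therefore says nothing on power or false calls here. Alternatives used limma 3.58.1 and DESeq2 1.42.0. Counting used Python 3.11.15 with numpy 2.4.6; tables, exact tests and plots used pandas 2.3.3, matplotlib 3.10.9 and scipy 1.17.1. Text names the 10 most abundant arms that passed, the 6 with the largest rise, the 6 highest and 6 lowest returns, the 6 highest in each knockout library, the leading members of each list, and miR-320, miR-451a and miR-484; the other arms that passed, miR-350-5p and the arms given as examples were picked with their values in view. The members and lists were chosen with earlier results of these data known. Intervals and floors cover counting error only.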

Additional observations from a re-analysis of the deposited data

How the results depend on the processing

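The count of arms passing the test (32 with insert totals) moved with the scaling, the filter and the method. TMM gave 4 (1 rose, miR-29b-3p, and 3 fell), snoRNA and snRNA reads as the scale gave 3, inserts that match no hairpin gave 35 (all 32 shared), and DESeq2 gave 24 of 380 (14 rose and 10 fell), 0 of them among the 32. A mean of at least 10 CPM gave 60, limma-trend on log2(CPM + 1) with that same filter 84, the 4 libraries alone 33 (1 fell, miR-350-5p), a window of 15 to 30 nt that also let as many as 2 bases at the 3′ end go unmatched 30, and no filter or splitting of shared reads 32 each. Leaving out 1 library gave 5 to 35. Dropping replicate 1 of the rescue gave 8 and dropping its replicate 2 gave 35, and for the knockout these numbers were 7 and 5. With DESeq2, 11 named arms that rose with insert totals read below 0, for which the cause was not tested: the log2 differences were -1.17 for miR-22-3p, -2.70 for miR-21a-5p, -0.18 for let-7c-5p, -0.024 for let-7b-5p, -0.040 for miR-31-5p, -0.74 for miR-125b-5p, -0.69 for miR-30a-5p, -0.54 for miR-26a-5p, -0.85 for miR-16-5p, -0.68 for miR-143-3p and -0.46 for miR-140-3p. The arm ratio test called 0 hairpins under every alternative run. The Drosha end share differed by -0.0910 points and read 0.0953 with 50 reads per library, and -1.06 to 0.874 with 1 library left out; the cause was not tested. The Dicer end share differed by 17.3 points, by 0.817 within 1 nt, and by 2.69 to 32.0 with 1 library left out. The median return was 69.5% in replicate 1 and 34.9% in replicate 2. Scaled to inserts that match no miRNA hairpin it was 59.2% and 25.4%. Scaled to miRNA reads alone, which takes out the difference in miRNA share, it was 86.8% and 90.9%. The replicate block gave 41 arms with all 32 shared, and 0 hairpins. Deviations of same-numbered libraries from their group means correlated at 0.22 between rescue and knockout, over the arms with a mean of at least 10 CPM. For these deviations, pairs of groups ranged from 0.0584 to 0.470, while the labels name no shared batch. Replicate numbers go with read length in every group, so returns are given within a number, but the block stands only as an alternative. With 2 libraries a group, exact tests cannot pass, arms under a few CPM cannot be compared, and the near-empty arms of replicate 1 limit every return below 1%.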
